A study of Mus musculus with 36 samples.

Results

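The genes described here encode a pair of linked phagocyte systems, the receptors that hold antibody-coated particles and the NADPH oxidase that makes superoxide. They were chosen by symbol: every spot annotated to 1 gene symbol among Cybb, Cyba, Ncf1, Fcgr1, Fcgr2b, Fcgr3, Fcer1g, Cd68 and Csf1r. Of these 9 genes, 5 had a spot (Cybb, Cyba, Fcgr1, Fcgr3 and Fcer1g), each with 1 spot, so the members are 5 of 15388 spots and 5 of the 6971 genes with a spot of their own. The remaining 4 genes were not analysed here. Because each gene rests on 1 spot, no pair of spots of a gene could be set against each other. The genes were chosen with earlier results of these data known. Counts of called members beside the share of all features are therefore descriptions and no test of the group.

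The series measured whole lung RNA of BALB/c mice on 36 spotted 2-colour cDNA arrays, 4 at each of 9 time points. The hypoxia groups had spent 1, 3, 7, 14 or 21 days at 0.5 atm. The recovery groups had 21 such days and then 1, 3, 7 or 14 days of sea-level pressure (called days 22, 24, 28 and 35), and each group was hybridised against control mice of the same time. Each RNA was a pool from 5 mice, and nothing in the labels tells whether arrays of the same day were made from different animals, so the tests measure the spread between arrays or between days, part of which may be technical. No genetic change or drug is named for any group. Every value below is a log2 ratio, likely of hypoxic over control lung from the order in which the labels name the dyes. No dye swap is recorded. A value below 0 is read as lower in the lungs of mice that had been hypoxic. Every sign would turn together if that order were wrong. Without a swap, a dye offset of a spot that is the same on every array would enter each test against 0. Such an offset could not be told apart from a difference between the lungs there, and it was not tested. Differences between days or phases would not hold it. The arrays held 14186 to 15042 of the 15388 values, their medians lay between -0.016 and 0.050 and their SDs between 0.17 and 0.52, the widest being day 28 replicate 1. Only ratios were used, with no level in either lung, so the labelled tissue could not be checked against the levels of lung markers.

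Cybb encodes the catalytic, electron-carrying subunit of the phagocyte oxidase and Cyba its membrane partner, and together they form the cytochrome that stays inactive until cytosolic subunits and a Rac GTPase join it. Fcgr1 encodes the high-affinity receptor for IgG and Fcgr3 an activating low-affinity receptor for IgG in immune complexes. Both pair with the signalling chain encoded by Fcer1g, which carries the tyrosine motif that recruits Syk. Macrophages, monocytes and neutrophils carry these proteins, and clustering of the receptors on a coated particle leads to its engulfment and to assembly of the oxidase. In lung, alveolar macrophages are the resident phagocytes of the airspace.

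The start regions of Cybb, Fcgr1 and Fcgr3 are shown because they hold the core of the site bound by the myeloid factor PU.1, GAGGAA, searched on both strands. Each line gives 300 bases of RefSeq sequence (GRCm38.p6, gene strand, which is the minus strand for all 3), from 250 bases before the start site to 50 bases after it, with matches in capitals. The Cybb window is chrX:9469275-9469574, the Fcgr1 window chr3:96293920-96294219 and the Fcgr3 window, for the first of 2 listed start sites, chr1:171059354-171059653.
Cybb: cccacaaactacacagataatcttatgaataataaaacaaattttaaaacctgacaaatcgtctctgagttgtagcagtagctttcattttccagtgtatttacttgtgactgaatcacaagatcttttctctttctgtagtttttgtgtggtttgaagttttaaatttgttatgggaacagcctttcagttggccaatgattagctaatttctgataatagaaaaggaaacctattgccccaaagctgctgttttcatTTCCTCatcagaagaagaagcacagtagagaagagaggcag
Fcgr1: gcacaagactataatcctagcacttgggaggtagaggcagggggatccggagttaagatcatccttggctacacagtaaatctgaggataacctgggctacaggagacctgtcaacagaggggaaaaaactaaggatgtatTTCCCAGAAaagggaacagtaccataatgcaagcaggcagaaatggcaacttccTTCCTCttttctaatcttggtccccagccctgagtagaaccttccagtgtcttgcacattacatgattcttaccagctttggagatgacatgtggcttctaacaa
Fcgr3: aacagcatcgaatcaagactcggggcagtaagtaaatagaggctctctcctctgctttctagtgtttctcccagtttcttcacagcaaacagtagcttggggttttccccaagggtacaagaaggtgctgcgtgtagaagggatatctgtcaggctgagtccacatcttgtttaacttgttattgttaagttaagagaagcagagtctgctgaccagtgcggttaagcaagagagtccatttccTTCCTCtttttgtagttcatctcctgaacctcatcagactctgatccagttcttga
All 3 matches read TTCCTC on the strand shown, so GAGGAA lies on the other strand. The first base of TTCCTC in capitals lies at +10 in Cybb, at -55 in Fcgr1 and at -6 in Fcgr3, or at -15 from the second start site listed for Fcgr3. Fcgr1 also holds TTCCCAGAA at -109, a match to the interferon-type motif TTCNNNGAA, which does not overlap the other match. The windows of Cyba and Fcer1g hold neither motif. Of 32851 promoter windows of the same length, 28.3 percent hold GAGGAA and 8.3 percent hold TTCNNNGAA, on either strand. A match is only a run of letters, and these arrays measured no binding.

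Cybb was the lowest of the 5 genes over the hypoxia phase. Its mean over the 5 hypoxia days was -0.62 ± 0.19 (SD, n = 5 days), a ratio of 0.65 to control, and Fcgr3 (-0.33 ± 0.20) and Fcgr1 (-0.27 ± 0.15) were lower as well, at ratios of 0.80 and 0.83. Cyba, the partner of Cybb in the cytochrome, was higher, at 0.22 ± 0.16, a ratio of 1.16. Fcer1g averaged -0.24 ± 0.31 and did not pass the test (limma, adjusted p = 0.083). With limma's moderated test on day means and Benjamini-Hochberg adjustment over 12159 features, 3 of 5 members were called lower, beside 17.7 percent of all features, and 1 of 5 was called higher, beside 24.7 percent. The median of the 5 members was -0.27 and that of all features 0.03. Since the members were chosen with earlier results known, these counts and medians only describe them. In whole lung, fewer cells of a type and less RNA per cell cannot be told apart.

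**Figure D1:**
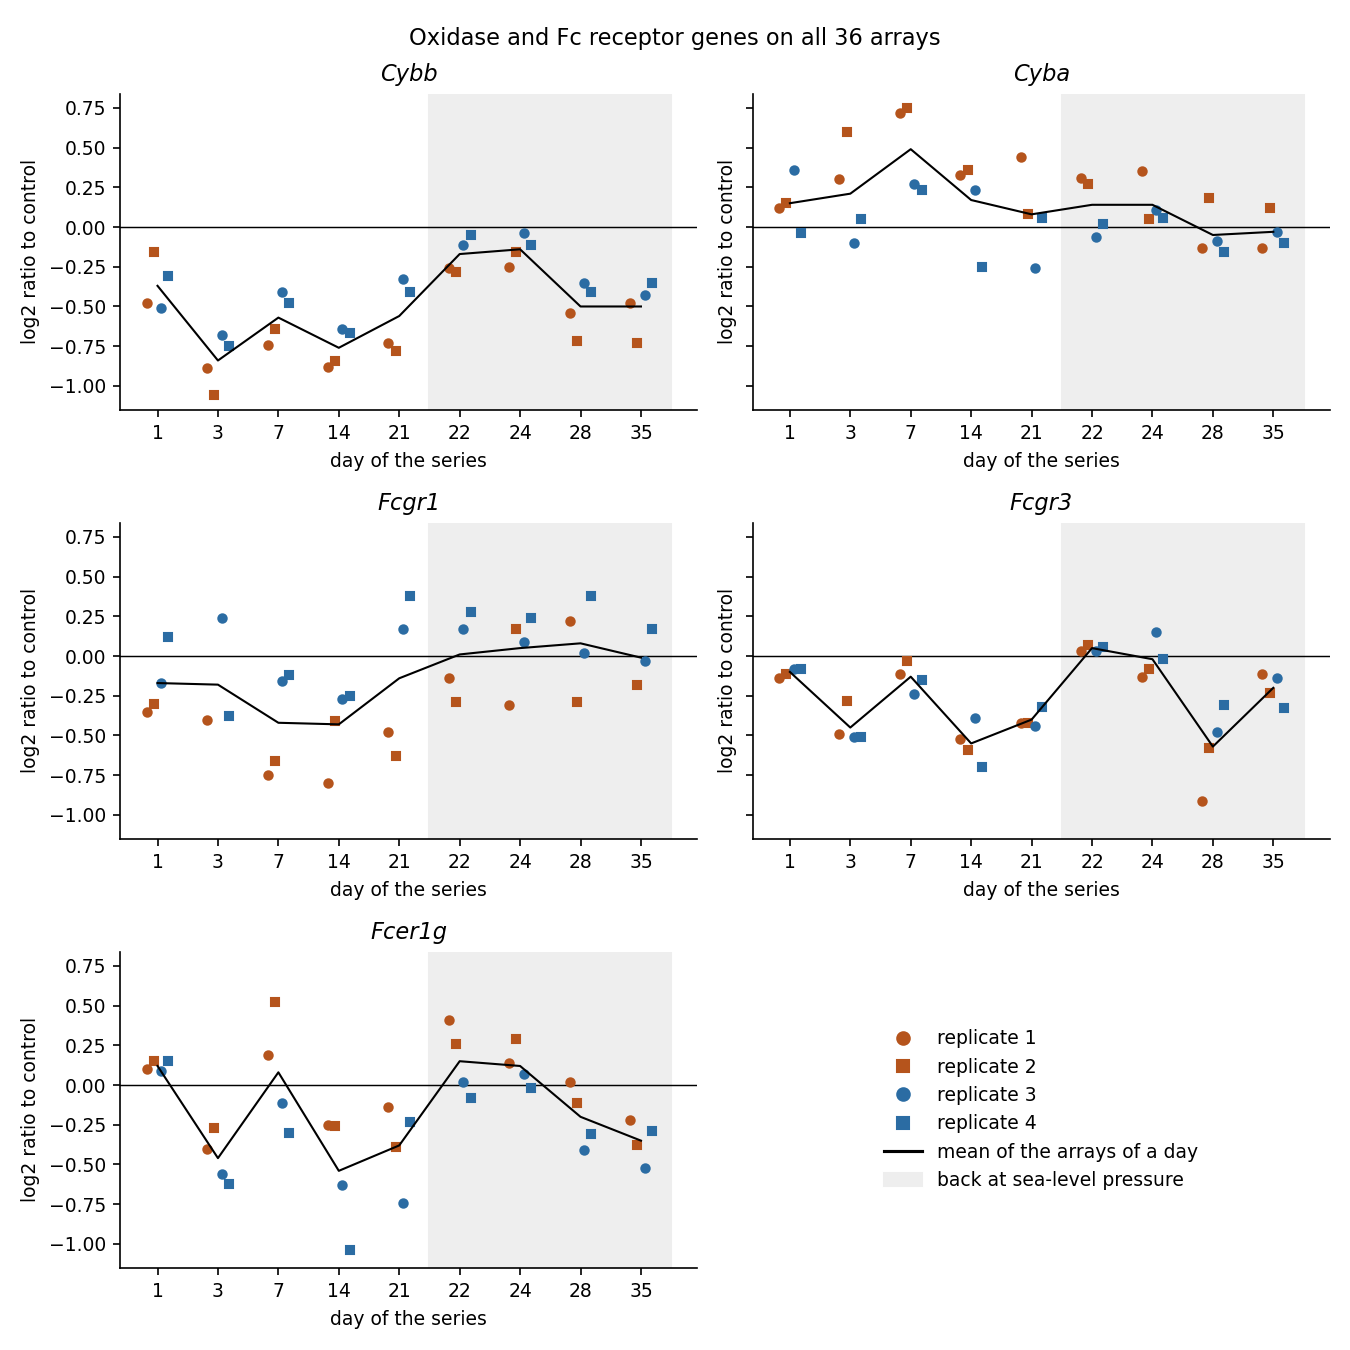
Log2 ratio of each member on every array, by day (x axis) and with a panel per gene. Points stand for single arrays, with replicates 1 and 2 marked apart from replicates 3 and 4, and lines join the day means, with the recovery days shaded. All 36 points of Cybb lie below 0, and the points of Fcgr1 and Cyba separate by replicate pair on several days.

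Cybb lay below 0 on 36 of 36 arrays, which held for 0.864 percent of all features. At day 1 its 4 arrays, in the order of replicates 1 to 4, read -0.48, -0.16, -0.51 and -0.31 (mean -0.37 ± 0.17 SD). At day 3 they read -0.89, -1.06, -0.68 and -0.75 (-0.84 ± 0.17), the lowest mean of the 9 time points. The lowest array of day 1 was above the highest of day 3, so these days did not overlap. At day 7 the arrays read -0.74, -0.64, -0.41 and -0.48 (-0.57 ± 0.15), and at day 14 -0.88, -0.84, -0.64 and -0.67 (-0.76 ± 0.12). At day 21 they read -0.73, -0.78, -0.33 and -0.41 (-0.56 ± 0.23). From day 7 to day 21 replicates 1 and 2 read lower than replicates 3 and 4 on every array.

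After 1 day back at sea-level pressure the Cybb arrays read -0.26, -0.28, -0.11 and -0.05 (day 22, -0.17 ± 0.11), all above those of day 21. At day 24 they read -0.25, -0.16, -0.04 and -0.11 (-0.14 ± 0.09), the mean nearest to 0. At days 28 and 35, after 7 and 14 days of recovery, Cybb was low again. The arrays of day 28 read -0.54, -0.72, -0.35 and -0.41 (-0.50 ± 0.16) and those of day 35 -0.48, -0.73, -0.43 and -0.35 (-0.50 ± 0.16). Put in order from the lowest mean, the days ran 3, 14, 7, 21, 28, 35, 1, 22 and 24, and the arrays of each day overlapped those of the next in that order.

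Cybb was called lower over the hypoxia phase (SE 0.07, adjusted p = 0.00017, limma) and over the recovery phase (-0.33 ± 0.20, SD over 4 days, adjusted p = 0.046), where it was the 1 member called beside 3.12 percent of features called lower. The recovery call was close to the threshold. It was lost without replicate 1 (-0.31, adjusted p = 0.060), in replicates 3 and 4 alone (-0.23, adjusted p = 0.058) and without any single day other than 1 or 7. Recovery values without a day lay between -0.39 and -0.27. The hypoxia mean was -0.72 in replicates 1 and 2 and -0.52 in replicates 3 and 4, and it passed in each pair.

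Cyba moved the other way, and its size depended on which arrays were read. At day 7 its arrays read 0.72, 0.75, 0.27 and 0.23 (mean 0.49 ± 0.28 SD), the highest of the 9 days, with replicates 1 and 2 well above the other pair. At day 3 they read 0.30, 0.60, -0.10 and 0.05 (0.21 ± 0.30) and at day 14 0.33, 0.36, 0.23 and -0.25 (0.17 ± 0.28). Day 1 read 0.12, 0.15, 0.36 and -0.04 (0.15 ± 0.16) and day 21 0.44, 0.08, -0.26 and 0.06 (0.08 ± 0.29). Across the hypoxia phase 16 of 20 arrays lay above 0, and at each of days 1, 3, 14 and 21 at least 1 array of replicates 3 and 4 lay below it.

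The hypoxia mean of Cyba passed over all arrays (0.22, SE 0.06, adjusted p = 0.0089, limma), and in replicates 1 and 2 alone (0.39, adjusted p = 0.003). It did not pass in replicates 3 and 4 alone, where it was 0.05 (adjusted p = 0.44). In recovery Cyba lay close to control. Day 22 read 0.31, 0.27, -0.06 and 0.02 (0.14 ± 0.18), day 24 read 0.35, 0.05, 0.11 and 0.06 (0.14 ± 0.14), day 28 read -0.13, 0.18, -0.09 and -0.16 (-0.05 ± 0.16) and day 35 read -0.13, 0.12, -0.03 and -0.10 (-0.03 ± 0.11). The recovery mean was 0.05 (adjusted p = 0.63). From the lowest mean, the days ran 28, 35, 21, 22, 24, 1, 14, 3 and 7, each overlapping the next.

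The other oxidase genes with a spot were Rac2, the Rac GTPase of blood cells that docks on the assembled enzyme, and Rac1, its broadly expressed relative. Of a list of 7 oxidase genes, 4 were measured, and over the hypoxia phase 3 were called lower (Cybb, Rac2 and Rac1, beside 17.7 percent of all features) and 1 higher (Cyba, beside 24.7 percent). Rac2 averaged -0.28 ± 0.21 (SD over 5 days, adjusted p = 0.012) and Rac1 -0.13 ± 0.08 (adjusted p = 0.022). Both rested on replicates 3 and 4: in replicates 1 and 2 alone Rac2 was -0.08 (adjusted p = 0.51) and Rac1 -0.09 (adjusted p = 0.24), and neither passed without replicate 3. In recovery 3 of the 4 were called lower, beside 3.12 percent of features, with Rac2 at -0.40 (adjusted p = 0.039), Rac1 at -0.21 (adjusted p = 0.039) and Cybb as above. The recovery calls of Rac2 and Rac1 were lost in replicates 1 and 2 alone (adjusted p = 0.052 and 0.069) and without day 3, 22, 24 or 28. Rac2 reached -0.58 at day 28 and -0.56 at day 35, days on which Cybb stood at -0.50 each.

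Fcgr1, the high-affinity IgG receptor, was lower in hypoxia chiefly on replicates 1 and 2. At day 7 its arrays read -0.75, -0.66, -0.16 and -0.12 (mean -0.42 ± 0.33 SD). At day 14 they read -0.80, -0.41, -0.27 and -0.25 (-0.43 ± 0.26). On these days all 4 arrays were below 0, with the second pair nearer to it. At day 21 the pairs had opposite signs: replicates 1 and 2 read -0.48 and -0.63 and replicates 3 and 4 read 0.17 and 0.38 (-0.14 ± 0.49). Day 1 read -0.35, -0.30, -0.17 and 0.12 (-0.17 ± 0.21), and day 3 read -0.40, 0.24 and -0.38 on replicates 1, 3 and 4 (-0.18 ± 0.36, n = 3), with no value on replicate 2.

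The hypoxia mean of Fcgr1 passed over all arrays (-0.27, SE 0.05, adjusted p = 0.0017) and in replicates 1 and 2 alone (-0.52, adjusted p = 0.00013). In replicates 3 and 4 alone it was -0.04 (adjusted p = 0.60). In recovery Fcgr1 stood near 0, with a mean of 0.03 ± 0.04 (SD over 4 days, adjusted p = 0.75). The arrays read -0.14, -0.29, 0.17 and 0.28 at day 22 (0.01 ± 0.26), -0.31, 0.17, 0.09 and 0.24 at day 24 (0.05 ± 0.25) and 0.22, -0.29, 0.02 and 0.38 at day 28 (0.08 ± 0.29). Day 35 read -0.18, -0.03 and 0.17 on replicates 2 to 4 (-0.01 ± 0.17, n = 3), with no value on replicate 1. From the lowest mean, the days ran 14, 7, 3, 1, 21, 35, 22, 24 and 28, with all hypoxia days below all recovery days, and the arrays of neighbouring days overlapped.

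Fcgr3, the activating receptor for immune complexes, was lower with little difference between the replicate pairs. It lay below 0 on 20 of 20 hypoxia arrays, as did Cybb, which held for 3.45 percent of all features. Day 1 read -0.14, -0.11, -0.08 and -0.08 (mean -0.10 ± 0.03 SD), and day 3 -0.49, -0.28, -0.51 and -0.51 (-0.45 ± 0.11). Day 7 lay nearer to control, at -0.11, -0.03, -0.24 and -0.15 (-0.13 ± 0.09). Day 14 read -0.52, -0.59, -0.39 and -0.70 (-0.55 ± 0.13), and day 21 read -0.42, -0.42, -0.44 and -0.32 (-0.40 ± 0.05). The 3 low days of hypoxia (3, 14 and 21) did not overlap days 1 and 7.

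At day 22 all 4 Fcgr3 arrays lay just above 0, at 0.03, 0.07, 0.03 and 0.06 (0.05 ± 0.02). Day 24 read -0.13, -0.08, 0.15 and -0.02 (-0.02 ± 0.12). Day 28 held the lowest mean of all days, with arrays at -0.91, -0.58, -0.48 and -0.31 (-0.57 ± 0.25). Without replicate 1 of that day, the array with the widest spread, the mean of day 28 was -0.46, still called. Day 35 read -0.11, -0.23, -0.14 and -0.33 (-0.20 ± 0.10). From the lowest mean, the days ran 28, 14, 3, 21, 35, 7, 1, 24 and 22, each overlapping the next.

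The hypoxia mean of Fcgr3 (-0.33, SE 0.09, adjusted p = 0.0096) passed in replicates 1 and 2 alone (-0.31, adjusted p = 0.030) and in replicates 3 and 4 alone (-0.34, adjusted p = 0.0033). Its recovery mean was -0.19 ± 0.28 (adjusted p = 0.21), spread over days near 0 and days well below it.

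Fcer1g, the chain shared by the receptors, swung from above to below 0 between neighbouring days. Day 1 read 0.10, 0.15, 0.09 and 0.15 (mean 0.12 ± 0.03 SD), all above 0, and day 3 read -0.40, -0.27, -0.56 and -0.62 (-0.46 ± 0.16), all below. At day 7 the pairs had opposite signs, with 0.19 and 0.52 on replicates 1 and 2 and -0.11 and -0.30 on replicates 3 and 4 (0.08 ± 0.36). Day 14 read -0.25, -0.26, -0.63 and -1.04 (-0.54 ± 0.38), and day 21 read -0.14, -0.39, -0.74 and -0.23 (-0.38 ± 0.26). All 8 arrays of days 14 and 21 were below 0, with most of the lowest values on replicates 3 and 4.

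In recovery the Fcer1g arrays of day 22 read 0.41, 0.26, 0.02 and -0.08 (0.15 ± 0.22) and those of day 24 read 0.14, 0.29, 0.07 and -0.02 (0.12 ± 0.13). Day 28 read 0.02, -0.11, -0.41 and -0.31 (-0.20 ± 0.20) and day 35 read -0.22, -0.38, -0.52 and -0.29 (-0.35 ± 0.13). The gene was thus near or above control on the first recovery days and below it on all 4 arrays of day 35. Its recovery mean was -0.07 ± 0.25 (adjusted p = 0.71). From the lowest mean, the days ran 14, 3, 21, 35, 28, 7, 24, 1 and 22, each overlapping the next.

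The hypoxia mean of Fcer1g passed in replicates 3 and 4 alone (-0.40, adjusted p = 0.0085), and it was -0.07 (adjusted p = 0.61) in replicates 1 and 2. It also passed without replicate 2 (-0.30, adjusted p = 0.028), without day 1 (-0.33, adjusted p = 0.029) and without day 7 (-0.31, adjusted p = 0.046).

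**Figure D2:**
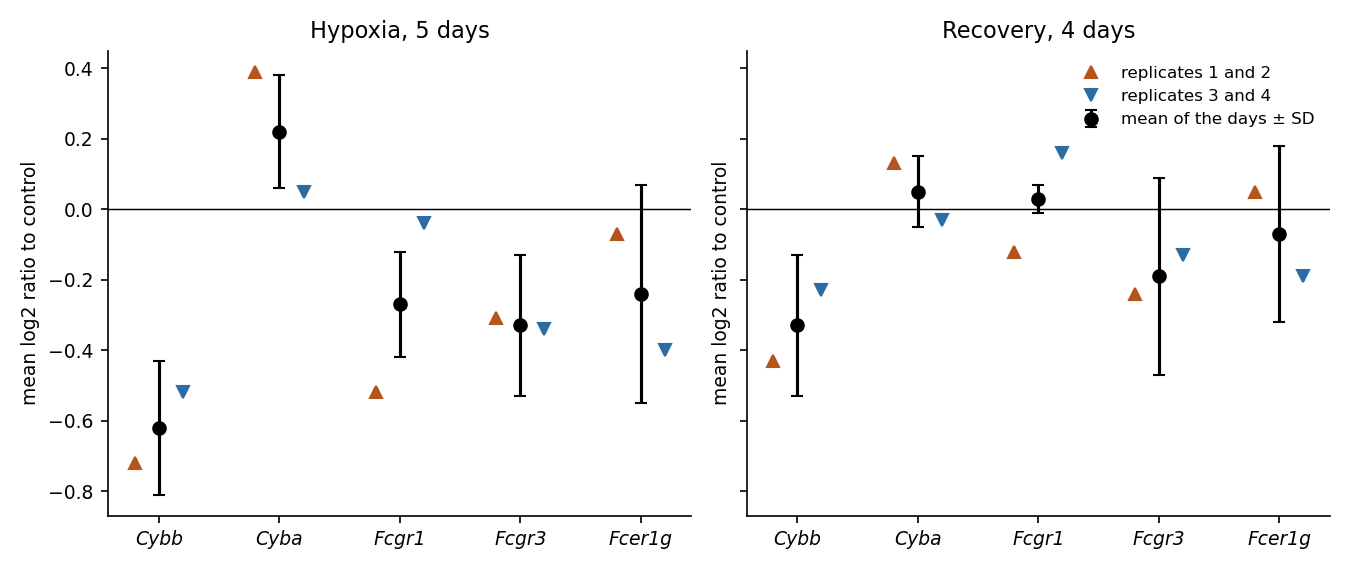
Mean log2 ratio of each member over the 5 hypoxia days (left) and the 4 recovery days (right). Black points and bars are the mean and SD of the days, and triangles are the means of replicates 1 and 2 and of replicates 3 and 4. In hypoxia the pair means were -0.72 and -0.52 for Cybb, 0.39 and 0.05 for Cyba, -0.52 and -0.04 for Fcgr1, -0.31 and -0.34 for Fcgr3, and -0.07 and -0.40 for Fcer1g.

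The difference between the pairs was tested itself, as replicates 1 and 2 minus replicates 3 and 4 on each day. In hypoxia 4 of 5 members differed, beside 47 percent of all features, so a difference between the pairs was common on these arrays. Fcgr1 differed by -0.48 (95% interval -0.65 to -0.30, adjusted p = 0.00073, limma), and replicates 1 and 2 were the lower pair on 5 of 5 days. Cyba differed by 0.33 (0.17 to 0.49, adjusted p = 0.0043) and Fcer1g by 0.33 (0.14 to 0.51, adjusted p = 0.0076), both higher in replicates 1 and 2. Cybb differed by -0.20 (-0.35 to -0.05, adjusted p = 0.028), a call that was lost without day 3, 7, 14 or 21 (adjusted p = 0.057 to 0.11) and with arrays scaled to a common spread (0.067). The Fcgr3 difference was 0.03 (-0.12 to 0.18, adjusted p = 0.74). In recovery 1 of 5 members differed, beside 12.6 percent of features: Fcgr1, by -0.29 (-0.48 to -0.10, adjusted p = 0.050, just under the threshold), which was lost without day 7, 14, 22, 24, 28 or 35. With arrays scaled to a common spread the recovery differences of Fcgr1 (-0.39, adjusted p = 0.01), Cybb (-0.22, 0.044) and Fcer1g (0.27, 0.02) passed in limma. The labels do not say what sets the pairs apart.

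Single days were tested on all 36 arrays. At day 1 Cybb was the 1 member called lower, beside 9.76 percent of 11517 features. At day 3 the members called lower were Cybb, Fcgr3 and Fcer1g, 3 of 5 beside 10.6 percent. At day 7 Cybb and Fcgr1 (adjusted p = 0.021) were lower, 2 of 5 beside 16.1 percent, and Cyba was higher (adjusted p = 0.00058), 1 of 5 beside 21.3 percent. At day 14 the 4 genes other than Cyba were lower, beside 12.7 percent, and at day 21 Cybb, Fcgr3 and Fcer1g were, 3 of 5 beside 2.47 percent. Day 21 was thus the hypoxia day on which the lower calls among all features were fewest and those among the members still 3.

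With replicates 1 and 2, and 3 and 4, of a day as random blocks, the calls of Fcgr1 at days 7 (adjusted p = 0.073) and 14 (0.091) and of Fcer1g at day 21 (0.24) were lost. The Fcgr1 calls were also lost with arrays scaled to a common spread (adjusted p = 0.14 and 0.12). The single-day calls of Fcgr1 and the day 21 call of Fcer1g were the least firm of these. The Fcgr1 call at day 7 was lost without replicate 1 (adjusted p = 0.15) or 2 (0.11), and that at day 14 (adjusted p = 0.024) without replicate 1 (0.16), 2 (0.055) or 3 (0.060). The Fcer1g call at day 21 was lost without any 1 of the 4 replicates (adjusted p = 0.062 to 0.40).

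At days 22 and 24 limma called none of the 5 members, with 1 of 5 and 0 of 5 at an unadjusted p under 0.05. Cybb came to an adjusted p of 0.44 and 0.39 on these days, beside 1.64 and 3.19 percent of features called in either direction. At day 28 Cybb and Fcgr3 were lower, 2 of 5 beside 14.3 percent. At day 35 Cybb alone was called, 1 of 5 beside 1.42 percent, and Fcgr3 (adjusted p = 0.086) and Fcer1g (adjusted p = 0.091) did not pass. With arrays scaled to a common spread both passed at day 35, at -0.27 (adjusted p = 0.0012) and -0.50 (adjusted p = 0.00091).

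Between day 1 and day 3 the arrays of 3 members separated. Hypoxic and control mice both differ from day to day, so a change in either cannot be told apart in a difference between days. For Cybb, Fcgr3 and Fcer1g every array of day 3 lay below every array of day 1, which held for 3.17 percent of all features. Cybb was lower by -0.48 (95% interval -0.71 to -0.25, adjusted p = 0.022), 1 of 5 members beside 0.703 percent of features called lower. This call was lost without replicate 1, 2 or 4 (adjusted p = 0.13 to 0.31) with arrays scaled to a common spread (-0.28, adjusted p = 0.44) and with the pairs of a day as random blocks (adjusted p = 0.22). Fcer1g differed by -0.59 (-0.91 to -0.26, adjusted p = 0.065) and Fcgr3 by -0.35 (-0.53 to -0.16, adjusted p = 0.052), and neither passed, although both did with all 4 arrays required at each day (adjusted p = 0.045 and 0.034). Fcgr1 (-0.01) and Cyba (0.07) had intervals of -0.46 to 0.45 and -0.25 to 0.38.

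The arrays of the same 3 genes also separated between day 21 and day 22, the first day back at sea-level pressure. Here too the hypoxic and the control mice both differ between the days. Every array of day 21 lay below every array of day 22 for Cybb, Fcgr3 and Fcer1g, which held for 2.08 percent of all features. Fcgr3 differed by 0.45 (95% interval 0.26 to 0.64, adjusted p = 0.0071), 1 of 5 members beside 0.391 percent of features called higher. The call was lost in each replicate pair alone, where the values were 0.47 (adjusted p = 0.21) and 0.43 (adjusted p = 0.25), without replicate 2 (adjusted p = 0.21) or 3 (0.18), and with the pairs of a day as random blocks (0.21). Fcer1g differed by 0.53 (0.20 to 0.86, adjusted p = 0.19) and Cybb by 0.39 (0.16 to 0.62, adjusted p = 0.15) without passing, although Fcer1g passed with arrays scaled to a common spread (0.60, adjusted p = 0.033). Fcgr1 (0.15) and Cyba (0.06) had intervals that included 0.

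At day 35 no member had a called difference from day 21, beside 1.16 percent of features in either direction, and the contrast shares the day 21 arrays with the one above. Fcgr3 differed by 0.20 (0.01 to 0.39, unadjusted p = 0.038, adjusted p = 0.62) and was the 1 member with an unadjusted p under 0.05. Cybb differed by 0.06 (-0.16 to 0.29) and Fcer1g by 0.03 (-0.30 to 0.35).

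The hypoxia and recovery means of the members were not told apart by limma on day means: 0 of 5 were called, beside 0.0329 percent of features, and 2 of 5 had an unadjusted p under 0.05. These were Fcgr1 at -0.30 (adjusted p = 0.12) and Cybb at -0.29 (adjusted p = 0.24). Nor was any slope on the log2 of the exposure time called in this fit on day means, 0 of 5 beside 0 percent of features, with 0 members and 335 features at an unadjusted p under 0.05. The steepest slope was that of Fcer1g, -0.10 per doubling of days (95% interval -0.23 to 0.02).

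Across the 9 time points Cybb, Fcgr3 and Fcer1g ran close together, and Cyba and Fcgr1 did not follow them alike. Pearson's r over the 9 day means, given as a description, was 0.84 for Fcgr3 with Fcer1g, 0.83 for Cybb with Fcer1g and 0.80 for Cybb with Fcgr3. In replicates 1 and 2, and in replicates 3 and 4, r was 0.64 and 0.92 for Fcgr3 with Fcer1g. It was 0.72 and 0.74 for Cybb with Fcer1g, and 0.62 and 0.87 for Cybb with Fcgr3. Among 6555 genes ranked by likeness to Fcgr3, Fcer1g stood at rank 16. In the ranking by likeness to Cybb, Fcer1g stood at 53 and Fcgr3 at 104. Cybb with Fcgr1 gave 0.61, Fcgr3 with Fcgr1 0.22 and Fcer1g with Fcgr1 0.26, and Cybb with Cyba -0.18. Cyba and Fcgr1 ran opposite, at -0.73, and did so in each replicate pair (-0.77 and -0.50). Counted from the gene most like Cyba, Fcgr1 stood at rank 6141 of 6555, so other genes ran more opposite to Cyba. All these values share the same arrays.

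The genes whose day means were most like those of each member, by the same r over 9 days, were named by rank. For Fcer1g they were Alox5ap (0.99), which encodes the protein that feeds arachidonic acid to leukotriene synthesis, Gpx1 (0.93) and Ovgp1 (0.92). For Fcgr3 they were Apex1 (0.96), Plac8 (0.96) and Glrx (0.94), and for Cybb Bcs1l (0.95), Nucb2 (0.93) and Cycs (0.92). For Cyba they were Prr13 (0.97), Cpsf1 (0.96) and Timm13 (0.95), and for Fcgr1 Prxl2a (0.97), Ddx3x (0.96) and Ivns1abp (0.96). Likeness of pattern did not mean likeness of size: Apex1 averaged 0.00 over hypoxia and Plac8 -0.69, beside -0.33 for Fcgr3.

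**Figure D3:**
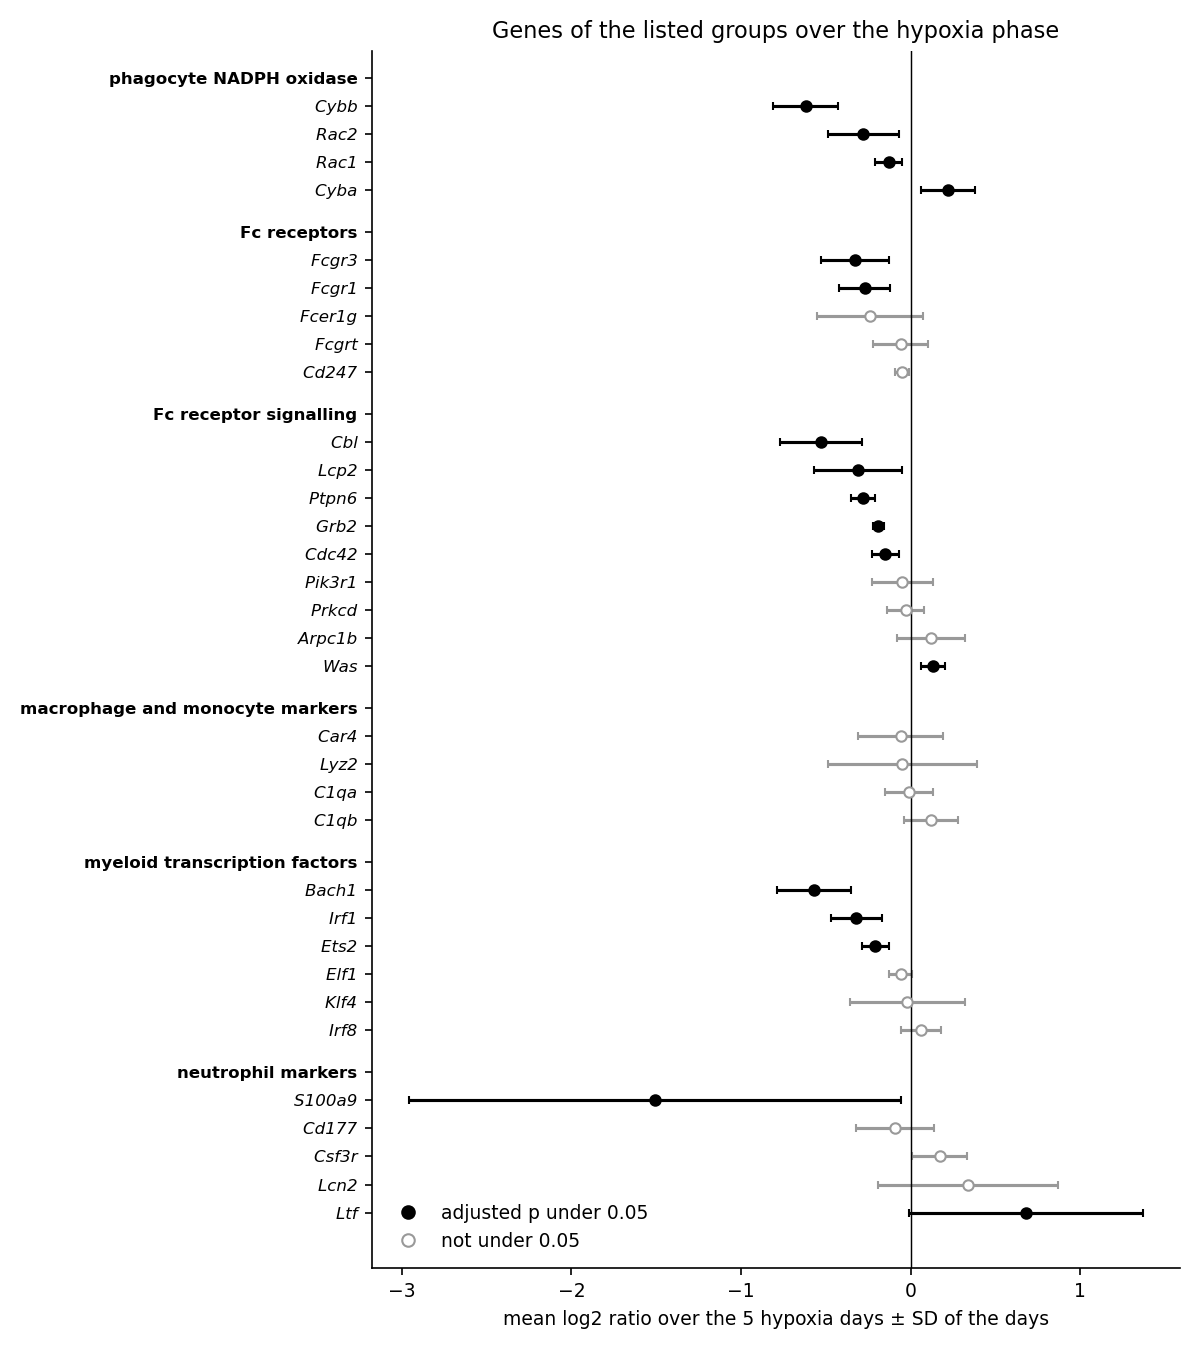
Mean log2 ratio over the 5 hypoxia days of each tested gene of 6 lists, with bars for the SD of the days. Filled points have an adjusted p under 0.05 (limma). The oxidase list runs from -0.62 (Cybb) to 0.22 (Cyba), and the 4 genes of the macrophage and monocyte list lie between -0.06 and 0.12.

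Genes that act with the members were counted from lists, and each count stands beside 17.7 percent of all features called lower and 24.7 percent called higher over hypoxia. Of 16 Fc receptor genes, 6 had a spot and 5 were tested, and 2 were lower over hypoxia, Fcgr1 and Fcgr3. Fcgrt, the neonatal receptor that recycles IgG (-0.06, adjusted p = 0.44), and Cd247, the zeta chain of the T cell receptor (-0.05, adjusted p = 0.26), did not pass. Of 28 genes of Fc receptor signalling, 10 had a spot and 9 were tested, of which 5 were lower and 1 higher in hypoxia, with a median of -0.15. The lower genes were the ubiquitin ligase Cbl (-0.53, adjusted p = 0.0035), the adaptors Lcp2 (-0.31, adjusted p = 0.0089) and Grb2 (-0.19, adjusted p = 0.002), and the phosphatase Ptpn6 (-0.28, adjusted p = 0.0087), which restrains such receptors. The fifth, the GTPase Cdc42 (-0.15, adjusted p = 0.0089), and the higher gene, the actin regulator Was (0.13, adjusted p = 0.014), were named after their values were seen. Lcp2, Grb2 and Cdc42 passed in each replicate pair alone, whereas Cbl, Ptpn6 and Was did not pass in replicates 1 and 2 (adjusted p = 0.062, 0.56 and 0.081). Ptpn6 did not pass without replicate 3 either. In recovery Ptpn6 was the 1 gene of this list called, at -0.43 (adjusted p = 0.032), a call lost without day 3, 22, 24 or 28.

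Of 16 myeloid transcription factors, 6 were measured and 3 were lower in hypoxia. Bach1, a repressor of haem-responsive genes, averaged -0.57 (adjusted p = 0.00024), Irf1, an interferon-induced activator, -0.32 (adjusted p = 0.0012), and Ets2 -0.21 (adjusted p = 0.011), and all 3 passed in each replicate pair. Irf8, a factor of the monocyte lineage, was at 0.06 (adjusted p = 0.36). Of 16 complement and phagocytosis receptors, 7 were measured, with 3 lower and 2 higher. Axl, a receptor for dying cells, averaged -0.25 (adjusted p = 0.003), Cr1l, a complement regulator, -0.23 (adjusted p = 0.0032) and the scavenger receptor Stab1 0.23 (adjusted p = 0.033), the last of which was lost with arrays scaled to a common spread, without replicate 4, without day 3, 7 or 14, and in replicates 1 and 2 alone. Cd47, the signal that restrains engulfment, averaged -0.18 (adjusted p = 0.004), a call that replicates 3 and 4 alone did not give (-0.03, adjusted p = 0.68). Lrp1, an endocytic receptor named after its value was seen, averaged 0.17 (adjusted p = 0.017), a call lost with arrays scaled to a common spread and without day 3, 7 or 21.

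Genes listed as markers of the cells that carry the members were few. Of 38 macrophage and monocyte markers, 4 had a spot, and limma called 0 of them over hypoxia, with 0 at an unadjusted p under 0.05: Lyz2 at -0.05 (adjusted p = 0.77), C1qa at -0.01 (0.96), C1qb at 0.12 (0.29) and Car4 at -0.06 (0.59). Their mean by day ran from -0.37 at day 28 to 0.26 at day 7. Whether these 4 genes are confined to macrophages in whole lung was not tested. The defining markers Cd68, Csf1r, Adgre1 and Marco were not analysed here, so the number of macrophages cannot be read from this list.

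Of 20 neutrophil markers, 5 had a spot, with 1 lower and 1 higher over hypoxia. Their mean by day ran from -0.81 at day 28 to 0.45 at day 7. S100a9, an abundant calcium-binding protein of neutrophils and monocytes, read 0.31, -2.63, -0.19, -2.72 and -2.32 on days 1, 3, 7, 14 and 21, and 0.19, -0.66, -2.97 and -3.25 on days 22, 24, 28 and 35. The list mean at day 28 thus rested largely on S100a9, as the other 4 markers read from -0.79 (Lcn2) to 0.15 (Csf3r) on that day. Days 3, 14, 21, 28 and 35, on which S100a9 was lowest, were also the 5 lowest days of Fcer1g and of Fcgr3. Over the 9 day means its r was 0.90 with Fcer1g, 0.81 with Fcgr3, 0.64 with Cybb, 0.53 with Cyba and -0.08 with Fcgr1, each over the same arrays. The other 4 neutrophil markers followed these genes less closely: with Fcer1g their r was 0.22 for Ltf, 0.09 for Csf3r, 0.30 for Lcn2 and 0.69 for Cd177. With Fcgr3 it was 0.20, -0.26, 0.56 and 0.61 in the same order, and with Cybb -0.25, -0.35, -0.03 and 0.33. S100a9 was singled out after its values were seen, and the likeness was not particular to it. The adaptor Lcp2, also picked after its values were seen, gave 0.90 with Fcer1g, 0.82 with Fcgr3 and 0.65 with Cybb. The other measured genes of its Fc receptor signalling list gave -0.38 to 0.53 with Fcer1g, -0.53 to 0.74 with Fcgr3 and -0.58 to 0.87 with Cybb. Grb2 was the highest in each range, and with Cybb it stood above Lcp2 and S100a9. The hypoxia mean of S100a9 was -1.51 (adjusted p = 0.038), a call that was lost with arrays scaled to a common spread, with robust moderation and without day 3, 14 or 21. Ltf, a granule protein, was higher, at 0.68 (adjusted p = 0.018), a call lost with robust moderation and without day 3 or 7, and Csf3r (0.17), Lcn2 (0.34) and Cd177 (-0.09) did not pass. The part of these cells in the members' values was not tested.

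**Figure D4:**
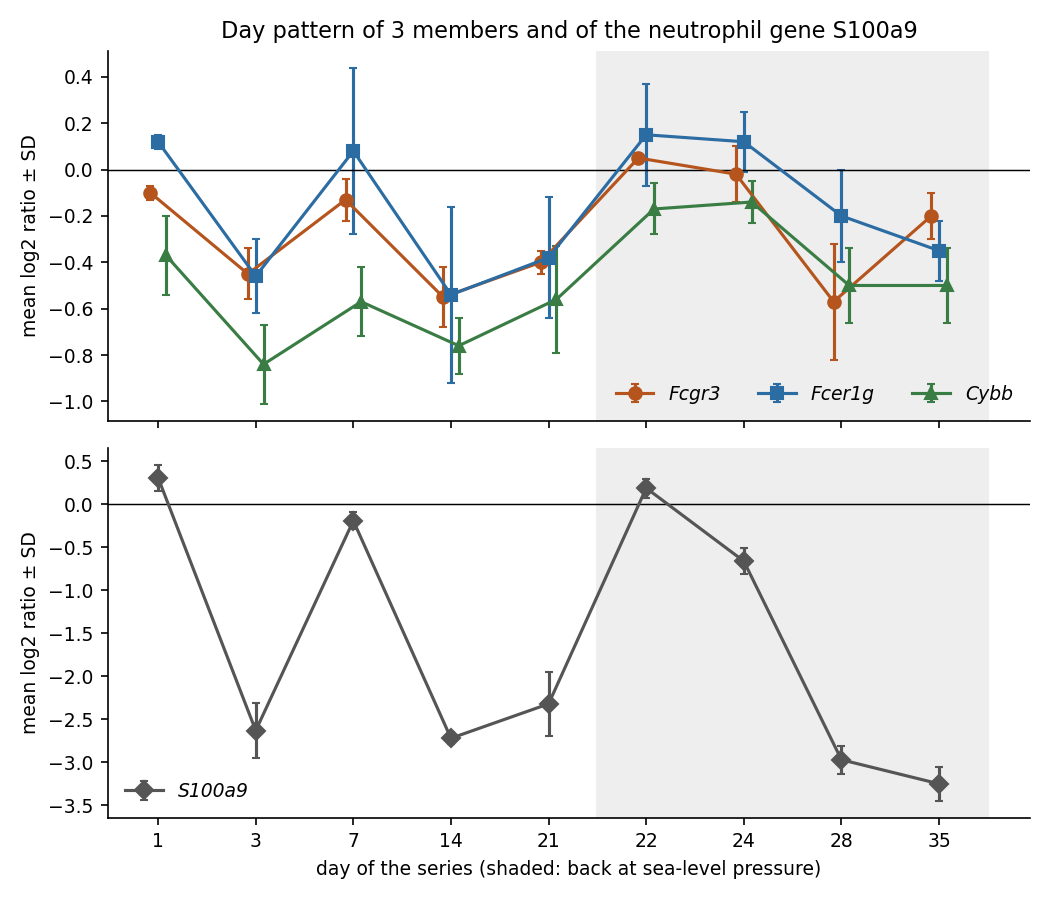
Day means of the log2 ratio by time point, with Fcgr3, Fcer1g and Cybb in the upper panel and S100a9 in the lower one on its own scale. Bars are the SD of the arrays of a day, and the recovery days are shaded. S100a9 falls to -2.63 at day 3, returns to -0.19 at day 7, and stands at -2.97 and -3.25 at days 28 and 35, and Fcgr3 and Fcer1g have their 5 lowest days on the same days as S100a9. Cybb does not, as day 7 is among its 5 lowest days. S100a9 was picked after its values were seen. The other measured neutrophil markers, not shown, had r of 0.09 (Csf3r) to 0.69 (Cd177) with Fcer1g, beside 0.90 for S100a9.

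The other cell lists held few measured genes. Both B cell markers measured, of 13, failed to pass in hypoxia: Blnk at 0.18 (adjusted p = 0.079) and Ighm at 0.08 (adjusted p = 0.67). Of 3 dendritic cell and MHC class II genes measured, of 12, Zbtb46 was lower (-0.25, adjusted p = 0.0015, not passing in replicates 1 and 2 alone) and H2-DMa higher (0.21, adjusted p = 0.014, likewise). The H2-DMa call was also lost without day 14 or 21. Kit (-0.35, adjusted p = 0.00098) and Gata2 (-0.25, adjusted p = 0.019) were the 2 measured of 13 listed for mast cells, basophils and eosinophils, and both were lower. Mast cells also carry Fcer1g, but whether Kit and Gata2 are confined to such cells in whole lung was not tested. Gata2 did not pass in replicates 1 and 2 alone or without day 3, 7 or 14. Of 5 endothelial, 6 epithelial and 8 fibroblast or smooth muscle genes measured, 3, 1 and 3 were higher and 1, 2 and 2 lower, beside the same shares of all features. The lists of other NADPH oxidases and of T and NK cell markers had no measured gene.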

How the data were processed

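Per the labels, the deposited values are log2 ratios of median spot intensity that were background corrected, had flagged spots removed and were normalised by lowess, after scanning on a GenePix 4000A scanner and reading with GenePix Pro 4.0. The files hold no intensities, and depth in the sense of signal over background was not used here. The number of arrays limits the precision.

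Gene names came from the platform annotation (9598 of 15388 with 1 symbol, 514 with several, 5276 with none, and 9510 named spots matched by Entrez identifier to RefSeq GRCm38.p6). Spots of a gene were averaged and unnamed spots kept singly, giving 12761 features. Tests used limma 3.58.1 in R 4.3.3 with Benjamini-Hochberg adjustment over all features and a threshold of 0.05. Phases were fitted on 9 day means (at least 2 arrays a day), single days and day contrasts on 36 arrays (at least 3 a day), and the replicate pair difference on 9 daily differences. Figures and tables used Python 3.11.15 and matplotlib 3.10.9. The fits were tested on simulated data. The simulated noise of the arrays of a day was independent, unlike the real arrays, which grouped by replicate pair. The simulation therefore cannot vouch for the p-values of single days and day contrasts.

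The members, the 16 lists and the tests were chosen with earlier results of these data known. All members with a spot are named. Of each member the 3 genes most alike are named. The plan for each list was to name up to 4 genes with the largest hypoxia mean among those called. Otherwise up to 2 with the lowest p were to be named. The endothelial, epithelial and fibroblast or smooth muscle lists were given as counts only. Genes outside that plan, among them Irf8, Fcgrt and Cd247, are named too. Alternatives covered centring, scaling, filters, spots, the unit of the fit, replicates, days and the moderation. The spot comparison that was planned was not run, because each member has 1 spot.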

Additional observations from a re-analysis of the deposited data

Results flagged for a closer look

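Of 43 groups of 4 arrays tested for a value far from the others, 1 had one, Fcgr3 at day 3, where replicate 2 read -0.28 and the other 3 arrays between -0.51 and -0.49. Chance gives about 1 in 20 such groups.

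The differences between days that passed a test were Cybb at day 3 minus day 1, -0.48, and Fcgr3 at day 22 minus day 21, 0.45. Fcer1g at day 3 minus day 1, -0.59, was listed because all 4 arrays of day 1 lay above 0 and all 4 of day 3 below it. The test of that difference did not pass (limma, adjusted p = 0.065).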

How the results depend on the processing

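Over hypoxia the calls of Cybb and Fcgr3 held under every alternative run. Those of Cyba (0.05) and Fcgr1 (-0.04) were lost in replicates 3 and 4 alone and in no other alternative that tested them (with all 4 arrays required at each day Fcgr1 was not tested), which left 0 members called higher there. Fcer1g gained a call in replicates 3 and 4 alone, without replicate 2, without day 1, without day 7, with all 36 arrays as the unit and with the replicate block, and the number of members called lower was 2, with all 4 arrays required, to 4.

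The recovery call of Cybb was lost without day 3, 14 or 21 (-0.33 each), 22 (-0.38), 24 (-0.39), 28 or 35 (-0.27 each), with the median of the arrays of a day (-0.31) and in replicates 3 and 4 alone (-0.23), leaving 0 members called. Leaving out each replicate in turn gave -0.36 to -0.28, with 0 to 1 members called.

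With all 36 arrays as the unit, members called lower were 2 in recovery and 3 for hypoxia minus recovery, with Fcgr3 in recovery at -0.19 (adjusted p = 5.4e-05) and the differences Cybb -0.29 (0.00021), Fcgr1 -0.30 (0.039) and Fcgr3 -0.14 (0.024). With the replicate block they were 2 and 4, and 1 was higher: Fcgr3 -0.19 (4.1e-05), Cybb -0.29 (3.3e-06), Fcgr1 -0.29 (0.0027) and Fcgr3 -0.14 (0.018). With the block on 36 arrays 2 slopes were called, Fcer1g -0.10 (0.011) and Fcgr3 -0.07 (0.039), and so were Fcer1g at day 35 (0.0082), Cybb (0.010) and Fcer1g (0.013) at day 22 minus day 21, and Fcer1g (0.0042) and Fcgr3 (0.032) at day 3 minus day 1. The single numbers did not pair the arrays by the rule used, but the pairs 1 with 2 and 3 with 4 did group them: 35 of 36 arrays correlated best with a number of their own pair. Deviations from the mean of a day had a median r of 0.34 to 0.43 between same-numbered arrays of different days, with a lowest of -0.15. Numbers 1 with 2 and 3 with 4 had medians of 0.42 and 0.40, and 15 of 36 arrays correlated best with their own number. Numbers across the pairs had medians of -0.41 to -0.38. These negative values are no separate result, because the deviations of a day cancel when added.

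The count of all features called in recovery, 580, became 3198 with arrays scaled to a common spread, 897 with each spot on its own, 4069 with 36 arrays, 5126 with the block, 1103 and 1609 in the replicate pairs, 255 with the median, 386 without replicate 4, and 0 to 679 without a day. For hypoxia minus recovery the count, 4, became 2045 with 36 arrays, 2931 with the block, 34 in replicates 1 and 2, 2 in replicates 3 and 4, 8 with all 4 arrays required or robust moderation, 2 to 19 without a replicate and 1 to 124 without a day.

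No value that changed sign was called in the alternative that turned it. In replicates 1 and 2 alone they were the recovery means of Fcer1g (0.05) and Fcgr1 (-0.12), the Cyba slope (0.03), Fcgr1 at days 22 (-0.21), 24 (-0.07) and 28 (-0.04), Cyba at day 28 (0.03) and Fcer1g at day 35 minus day 21 (-0.03). In replicates 3 and 4 alone they were the recovery mean of Cyba (-0.03), the slopes of Cybb (0.00) and Fcgr1 (0.02), Cyba at days 3 (-0.02), 14 (-0.01), 21 (-0.10) and 22 (-0.02), Fcer1g at days 7 (-0.20) and 22 (-0.03), Fcgr1 at days 21 (0.28) and 35 (0.07), Fcgr3 at day 24 (0.06), Fcgr1 at day 22 minus day 21 (-0.05), day 35 minus day 21 of Cyba (0.04), Cybb (-0.02) and Fcgr1 (-0.21), and Cyba at day 3 minus day 1 (-0.18). Scaling turned day 35 minus day 21 of Cybb (-0.11) and Fcer1g (-0.09) and day 3 minus day 1 of Fcgr1 (0.03, and 0.00 with median centring). Slopes turned for Cybb without day 1 (0.07) and for Cyba without day 14 (0.00) or 21 (0.03), and with the median for Cyba and Fcgr1 (0.01 each), and the Fcer1g recovery mean without day 35 (0.02).

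Leaving out each replicate gave ranges across 0 for day 21 of Cyba (-0.04 to 0.19) and Fcgr1 (-0.31 to 0.03), day 24 of Fcgr3 (-0.08 to 0.02) and Fcgr1 (-0.02 to 0.17), day 7 of Fcer1g (-0.07 to 0.20), Fcgr1 at days 22 (-0.09 to 0.10), 28 (-0.02 to 0.20) and 35 (-0.11 to 0.07) and over recovery (-0.06 to 0.10), the Cyba slope (-0.03 to 0.02), day 35 minus day 21 of Cyba (-0.23 to 0.04) and Fcer1g (-0.04 to 0.06), and day 3 minus day 1 of Fcgr1 (-0.21 to 0.19) and Cyba (-0.06 to 0.24). The causes were not tested. Without day 28 replicate 1, an alternative chosen after seeing the data, no phase call of a member changed.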
